A study of Mus musculus with 6 samples.

Results

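The genes described here encode the enzymes that cut, trim and crosslink the extracellular matrix and the proteins that hold those enzymes in check: the matrix metalloproteinases (Mmp), their tissue inhibitors (Timp), the ADAMTS proteases and the protease-free ADAMTS-like proteins (Adamtsl), the lysyl oxidases (Lox and Loxl) and the lysyl hydroxylases (Plod). Members were chosen by gene symbol alone, from rows with a single symbol, which gave 57 genes of 21154 genes with a single symbol on the array. Of these, 23 were Mmp genes, 4 Timp, 19 Adamts, 5 Adamtsl, 4 Lox or Loxl and 2 Plod, and every member had 1 transcript cluster, the array's gene-level probe set. Loxl2 and Plod3 were left out because their clusters carry a second symbol.

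RNA of 3T3-L1, a fibroblast-like mouse line that serves as a preadipocyte model and stores fat after a hormone mixture, was read on 6 Clariom S arrays. The Tsuru group, 3 arrays, holds cells treated for 9 days with an extract of Tsuruazuki. The control group, 3 arrays, holds cells that received no extract for 9 days, which the sample titles call maintained in Medium. Per the treatment protocol, cells past confluence received IBMX, insulin and dexamethasone with or without the extract, and went into insulin medium at day 3. That protocol names dilutions of 1 part in 1000 and 1 part in 100 of a 100 mg/ml extract, and the labels do not say which the arrayed cells received. The titles and the protocol leave unsettled whether the arrayed controls went through induction. All 6 samples are of 1 cell line, and the labels do not tell whether a group's arrays are separate cultures. The p-values below therefore cover array-to-array spread that may be purely technical.

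As background, the matrix around a preadipocyte is remodelled as the cell rounds up and fills with fat. Fibrillar collagen is first modified inside the cell, where lysyl hydroxylases hydroxylate the lysines later used for crosslinks. Outside, ADAMTS2, ADAMTS3 and ADAMTS14 remove the amino-terminal propeptide, and lysyl oxidases oxidise lysines so that crosslinks form. MMPs cut collagens and other matrix proteins, with MMP14, anchored in the membrane, activating MMP2. TIMPs block the active site of MMPs, and TIMP3 also blocks several ADAMTS enzymes.

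Adipocyte markers were present on every array: 7 of 7 had a mean above 5.87, the mean of the array's negative control sets on the log2 scale, which is used below as the limit of a measurable signal for a gene's mean over the 6 arrays. The mean log2 signal over those 7 markers ran from 15.00 to 15.35 in the Tsuru group and from 14.53 to 14.95 in the control group, so the groups did not overlap. Over 6 preadipocyte and fibroblast markers it ran from 12.49 to 12.55 and from 12.50 to 12.67. The 8 macrophage and leukocyte markers averaged 4.81 to 5.05 with Tsuru and 5.15 to 5.58 in controls, with 5 of them under the limit. All 5 endothelial, all 5 epithelial and all 6 osteoblast, chondrocyte and osteoclast markers lay under it, as did 5 of 6 neutrophil markers. Control replicate 1 stood apart, with a mean correlation with the other arrays of 0.9868 against 0.9906 to 0.9918. Of these marker lists, 2 of 7 adipocyte markers and 1 of 6 neutrophil markers passed the unadjusted threshold defined below with a higher mean. Over all genes 5.75% did so. With a lower mean, 2 of 8 macrophage markers and 1 of 5 endothelial markers passed, where 5.05% of all genes did. Of those lower markers, the macrophage gene Mrc1 and the endothelial gene Cdh5 lay under the limit. The part of any of these marker lists in the results that follow was not tested.

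No member passed correction for all transcripts. Each cluster was fitted with limma's moderated test, and of the 21154 genes 0, or 0%, reached an adjusted p under 0.05; among the members the lowest adjusted p was 0.341. At the threshold of the study's methods, a fold above 1.1 on the linear scale with p under 0.05 before adjustment, 2472 clusters passed, and so did 10 members. Of these, 6 had a higher mean signal with Tsuru, or 10.5% of the members, where 5.75% of all genes did. They were Adamts15, Plod1, Plod2, Adamts9, Timp4 and Adamts2, and all of them lay above the negative control sets. The 4 with a lower mean, or 7.02% of the members against 5.05% of all genes, were Adamtsl4, Mmp1a, Mmp25 and Adamts18, and the last 3 lay under that limit in both groups. In bulk RNA, fewer cells of a type and less RNA per cell cannot be told apart.

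Direction went with brightness across the whole array. Among all 9727 genes above the negative control sets, 9.85% passed the threshold with a higher mean and 2.92% with a lower one, while among the 11427 genes under it 2.26% were higher and 6.86% lower. The 31 members above the limit gave 6 higher and 1 lower, or 19.4% and 3.23%, and the 26 under it gave 0 higher and 3 lower. The split of higher to lower members was 5 to 2 after quantile normalization and 7 to 2 after subtraction of array medians. The median log2 difference was 0.06 over all members, beside 0.01 over all genes, and 0.16 over the 31, beside 0.10 over all genes above the limit. Values of the 3 Tsuru arrays lay wholly above those of the 3 controls for 7 members, or 12.3%, against 9.09% of all genes. They lay wholly below for 5, or 8.77%, against 7.51%. Among the 31 members above the limit these were 6, or 19.4%, and 2, or 6.45%. Of all genes above the limit, 14.7% lay wholly above and 4.43% wholly below.

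**Figure D1:**
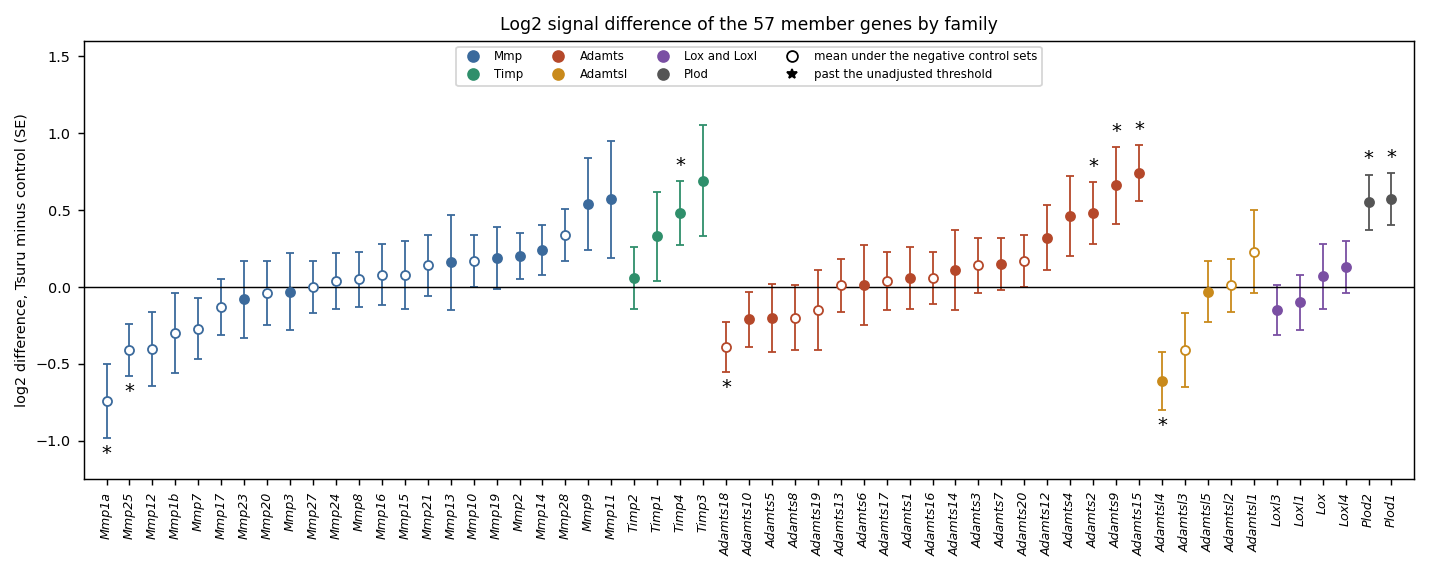
Each point is the log2 signal difference of a member gene, Tsuru minus control, with its moderated standard error, ordered by size within each family. Open points mark genes under the negative control sets and asterisks the 10 genes past the unadjusted threshold, which, among genes above those sets, lie between -0.61 for Adamtsl4 and 0.74 for Adamts15.

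Windows around the transcription start were read for the members above the limit that passed the unadjusted threshold, to show the sequence next to these genes. RefSeq windows of 300 bases on GRCm38.p6, from 250 before to 50 after the start, were at hand for 5 of these 7 genes. Capitals mark matches, on either strand, to 5 short motifs: TGANTCA (AP-1), ACGTG (the core of the hypoxia response element), GGGCGG (the GC box), CCAAT and TATAAA. Matches of different motifs may overlap.
Plod1, chr4:147936727-147937026, strand minus: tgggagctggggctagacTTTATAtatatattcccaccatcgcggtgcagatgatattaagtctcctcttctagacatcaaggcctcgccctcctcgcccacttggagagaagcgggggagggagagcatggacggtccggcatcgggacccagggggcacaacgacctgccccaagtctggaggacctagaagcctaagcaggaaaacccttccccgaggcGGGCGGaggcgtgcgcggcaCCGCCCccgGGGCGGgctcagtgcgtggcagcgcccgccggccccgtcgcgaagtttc
Adamts2, chr11:50601835-50602134, strand plus: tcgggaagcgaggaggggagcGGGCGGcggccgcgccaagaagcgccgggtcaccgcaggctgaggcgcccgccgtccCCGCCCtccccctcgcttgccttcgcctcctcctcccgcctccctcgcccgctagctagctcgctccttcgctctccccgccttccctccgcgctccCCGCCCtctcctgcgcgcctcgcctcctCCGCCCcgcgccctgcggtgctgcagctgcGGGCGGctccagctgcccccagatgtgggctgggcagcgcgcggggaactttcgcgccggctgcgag
Adamts9, chr6:92943485-92943784, strand minus: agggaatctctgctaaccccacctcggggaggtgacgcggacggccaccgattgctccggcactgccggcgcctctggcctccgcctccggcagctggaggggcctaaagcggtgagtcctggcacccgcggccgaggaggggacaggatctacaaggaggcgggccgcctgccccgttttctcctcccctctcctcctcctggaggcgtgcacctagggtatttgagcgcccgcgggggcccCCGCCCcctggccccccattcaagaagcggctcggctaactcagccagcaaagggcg
Timp4, chr6:115252156-115252455, strand minus: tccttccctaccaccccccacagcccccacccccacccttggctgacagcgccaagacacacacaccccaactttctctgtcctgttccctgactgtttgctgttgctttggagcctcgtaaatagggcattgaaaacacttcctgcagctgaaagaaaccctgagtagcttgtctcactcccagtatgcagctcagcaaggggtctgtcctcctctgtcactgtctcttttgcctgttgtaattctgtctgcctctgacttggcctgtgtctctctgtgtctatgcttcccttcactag
Adamtsl4, chr3:95687868-95688167, strand minus: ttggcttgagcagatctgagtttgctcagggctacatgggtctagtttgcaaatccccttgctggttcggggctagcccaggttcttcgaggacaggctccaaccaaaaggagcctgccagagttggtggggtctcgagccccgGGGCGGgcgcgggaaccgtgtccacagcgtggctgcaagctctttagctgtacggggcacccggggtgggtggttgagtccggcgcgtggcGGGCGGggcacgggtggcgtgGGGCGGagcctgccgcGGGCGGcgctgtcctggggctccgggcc
The GC box letters were found in 4 of the 5 windows, and in 35.7% of all 32851 windows of the table. The TATA box letters, TATAAA, were found in Plod1, and in 13.6% of all windows. In Plod1 they stand as TTTATA, on the strand opposite to the printed one, near the first bases of the window. Whether they act as a TATA box was not tested. The AP-1, hypoxia core and CCAAT motifs were in 0 of the 5, where 7.81%, 19.6% and 37.4% of all windows hold them. Adamts2 held 5 GC boxes and 77.3% G or C, while Timp4, with 53.3% G or C, held none of the motifs. No motif was found in all 5 windows or in all 4 of the genes with a higher mean.

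Both lysyl hydroxylase genes among the members passed the unadjusted threshold with a higher mean, while Plod3, left out by the single-symbol rule, is not described. Plod1, which encodes the enzyme that hydroxylates lysines of the collagen helix, read 15.96, 15.95 and 15.73 with Tsuru and 15.23, 15.47 and 15.24 without. Every Tsuru value was above every control value, and the mean was 1.48-fold higher (log2 difference 0.57 ± 0.17, SE; limma adjusted p = 0.352). Plod2, whose product hydroxylates lysines of the collagen telopeptides, read 10.72, 10.47 and 10.26 with Tsuru and 10.05, 9.93 and 9.83 without. These groups did not overlap either, and the mean was 1.46-fold higher (0.55 ± 0.18, SE; adjusted p = 0.356). Leaving out any single array moved the Plod1 difference between 0.52 and 0.65. The Plod2 difference was 0.43 without Tsuru replicate 1, where it no longer passed the unadjusted threshold.

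Among the lysyl oxidase members, whose products act after the hydroxylases, 0 of 4 passed, with Loxl2 left out by the single-symbol rule. Lox, the founding lysyl oxidase gene, read 17.69, 17.84 and 17.67 with Tsuru and 17.37, 17.53 and 18.07 in controls. The controls enclosed the Tsuru values, and the difference of 0.07 had a 95% interval from -0.39 to 0.53; it was -0.07 without control replicate 1. Loxl1, needed for elastic fibres in mice, differed by -0.10 (interval -0.50 to 0.30) and was at 0.00 without Tsuru replicate 1. Loxl4 differed by 0.13 (interval -0.25 to 0.52). Loxl3 read 11.62, 11.71 and 11.57 against 11.86, 11.73 and 11.77, which puts every Tsuru value below every control value, with a difference of -0.15 and an interval from -0.50 to 0.20. A difference between the hydroxylase and oxidase families was not tested.

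Of the 19 Adamts genes, 3 passed with a higher mean, or 15.8%, and 1 with a lower mean, or 5.26%. Over all genes 5.75% and 5.05% did so, and over those above the limit 9.85% and 2.92%. Adamts15, a protease gene of the group that cuts proteoglycans such as versican and aggrecan, had the smallest p of all members. It read 7.42, 7.46 and 7.81 with Tsuru and 6.66, 6.82 and 6.97 in controls. The groups were apart on all 6 arrays, with a 1.67-fold higher mean (log2 difference 0.74 ± 0.18, SE; limma adjusted p = 0.341), and the difference stayed between 0.62 and 0.82 with any single array left out. Adamts9, of the same group, read 9.83, 9.66 and 9.71 with Tsuru, a range of 0.17, and 8.49, 9.15 and 9.58 in controls, a range of 1.09. The lowest Tsuru value was only just above the highest control, and the difference of 0.66 ± 0.25 (SE; adjusted p = 0.409) was 0.37 without control replicate 1. It also left the unadjusted threshold without Tsuru replicate 1, at 0.61, and without Tsuru replicate 3, at 0.67.

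The remaining proteoglycan-cleaving members did not pass. Adamts4, an aggrecanase gene, read 8.27, 8.16 and 8.97 with Tsuru against 7.92, 7.67 and 8.42, with the highest value of each group on replicate 3. Its difference was 0.46 ± 0.26 (SE), and 0.67, past the unadjusted threshold, without control replicate 3. Adamts1, which encodes a versican-cutting protease, differed by 0.06 and by -0.14 without control replicate 1, and Adamts5, another aggrecanase gene, differed by -0.20 and by 0.05 without Tsuru replicate 3. Adamts8 and Adamts20 lay under the negative control sets.

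Adamts2 passed among the procollagen N-proteinases. It read 12.13, 12.19 and 11.64 with Tsuru and 11.26, 11.67 and 11.61 without, so Tsuru replicate 3 lay inside the control range. The mean was 1.39-fold higher (log2 difference 0.48 ± 0.20, SE; limma adjusted p = 0.437). The call rested on several arrays, since the difference was 0.35 without control replicate 1, 0.52 without control replicate 3, 0.40 without Tsuru replicate 1 and 0.37 without Tsuru replicate 2, none past the unadjusted threshold. Adamts14 differed by 0.11 ± 0.26 (SE), and Adamts3 lay under the negative control sets. Of the other 9 Adamts genes, Adamts12, whose product cuts cartilage oligomeric matrix protein, differed by 0.32 ± 0.21 (SE), or by 0.51 and past the unadjusted threshold without control replicate 3. Adamts18 was the one called lower, at 3.20, 3.39 and 3.22 with Tsuru and 3.54, 3.79 and 3.67 without. Both groups lay under the limit, so no fold is given, and the call was lost on leaving out replicate 1 or 3 of Tsuru or replicate 2 or 3 of the controls.

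Adamtsl4 was the single member above the limit with a lower mean past the threshold. It encodes an ADAMTS-like protein that binds fibrillin microfibrils and has no protease domain. It read 7.55, 7.17 and 7.56 with Tsuru and 8.29, 7.91 and 7.91 in controls. No Tsuru value reached the lowest control, and the log2 difference was -0.61 ± 0.19 (SE; limma adjusted p = 0.352), between -0.67 and -0.48 with any single array left out. Adamtsl5, the other family member above the limit, differed by -0.03 ± 0.20 (SE), while Adamtsl1, Adamtsl2 and Adamtsl3 lay under it.

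**Figure D2:**
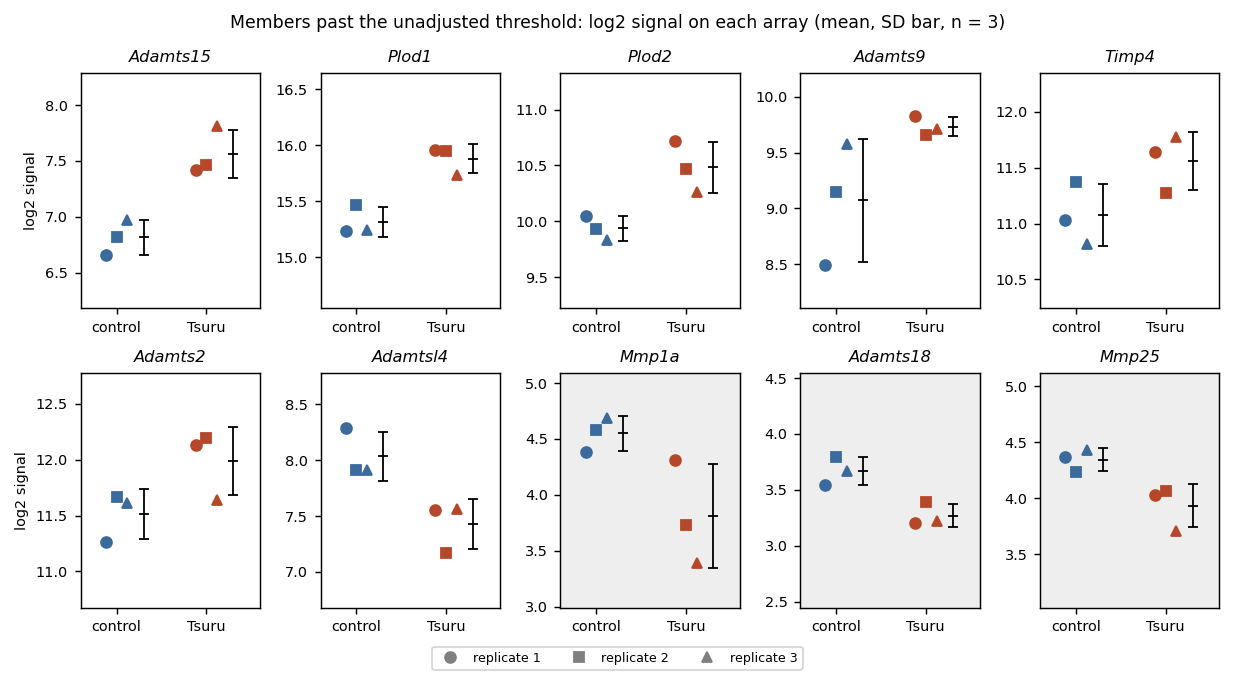
Log2 signal on each array for the 10 members past the unadjusted threshold, with the mean and SD of 3 arrays beside the points; every panel spans the same height in log2 units, and grey panels mark the 3 genes under the negative control sets. The points of the groups do not overlap for Adamts15, Plod1, Plod2 and Adamts9 or for the 4 lower genes, and they do for Timp4 and Adamts2.

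All 4 tissue inhibitor genes had a higher mean with Tsuru, as did 64.8% of all genes above the limit. Of the 4, only Timp4 passed the unadjusted threshold. Timp4, an inhibitor gene known to be expressed in fat and heart, read 11.64, 11.27 and 11.77 with Tsuru and 11.03, 11.37 and 10.82 in controls. Control replicate 2 lay above Tsuru replicate 2, and the mean was 1.40-fold higher (log2 difference 0.48 ± 0.21, SE; limma adjusted p = 0.430). That call was lost on leaving out replicate 1 or 3 of Tsuru, at 0.44 and 0.38, or replicate 1 or 3 of the controls, at 0.46 and 0.36.

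Timp3, the matrix-bound inhibitor, had the widest control range of the 31 members above the limit. It read 10.58, 10.71 and 10.65 with Tsuru, a range of 0.13, but 9.05, 9.98 and 10.84 in controls, a range of 1.79. The Tsuru arrays thus lay inside the control range, and the difference of 0.69 ± 0.36 (SE; adjusted p = 0.507) was 0.23 without control replicate 1 and 1.13, past the unadjusted threshold, without control replicate 3. Timp1 read 10.36, 10.36 and 10.89 with Tsuru and 9.87, 9.87 and 10.88 in controls, with replicate 3 the highest in each group. Its difference of 0.33 ± 0.29 (SE) was 0.67 and past the unadjusted threshold without control replicate 3, 0.16 without control replicate 1 or 2, and 0.15 without Tsuru replicate 3. Timp2, the inhibitor that also takes part in MMP2 activation, differed by 0.06 with an interval from -0.38 to 0.51, and by -0.11 without control replicate 1.

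Of the 23 Mmp genes, 0 passed with a higher mean and 2, or 8.7%, with a lower one, and 15 lay under the negative control sets. Both lower genes were among those 15. With a lower mean, 5.05% of all genes passed, and 6.86% of all genes under the limit. The gelatinase gene Mmp2 read 17.79, 17.78 and 17.75 with Tsuru and 17.50, 17.56 and 17.67 in controls. Every Tsuru value was higher, but the difference of 0.20 ± 0.15 (SE; limma adjusted p = 0.651) had a 95% interval from -0.15 to 0.54. Mmp14, the gene of its membrane-bound activator, showed the same arrangement at 14.63, 14.51 and 14.68 against 14.23, 14.42 and 14.46, with a difference of 0.24 ± 0.16 (SE; adjusted p = 0.603). The other gelatinase gene, Mmp9, read 8.70, 8.80 and 9.45 with Tsuru and 8.06, 8.15 and 9.11 without, highest on replicate 3 in each group. Its groups overlapped, and the difference of 0.54 ± 0.30 (SE; adjusted p = 0.525) was 0.88 and past the unadjusted threshold without control replicate 3, 0.35 without control replicate 1 and 0.31 without Tsuru replicate 3.

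The other Mmp genes above the limit overlapped between groups. Mmp11, or stromelysin 3, read 6.93, 6.47 and 5.59 with Tsuru and 6.09, 6.21 and 4.98 in controls, with replicate 3 the lowest in each group and a control mean of 5.76, under the limit. Its difference of 0.57 ± 0.38 (SE) was 0.94 and past the unadjusted threshold without Tsuru replicate 3, 0.27 without Tsuru replicate 1 and 0.18 without control replicate 3. Mmp3, or stromelysin 1, differed by -0.03 with an interval from -0.58 to 0.53, and by 0.25 without control replicate 3. Mmp13, a collagenase gene, differed by 0.16 with an interval from -0.53 to 0.85, and by -0.15 without Tsuru replicate 2. Mmp19 and Mmp23 differed by 0.19 ± 0.20 (SE) and -0.08 ± 0.25 (SE).

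In the RefSeq gene table of GRCm38.p6, 10 Mmp genes lie next to each other on chromosome 9. They are Mmp13, Mmp12, Mmp1b, Mmp3, Mmp1a, Mmp10, Mmp8, Mmp27, Mmp20 and Mmp7. On these arrays 8 of the 10 lay under the negative control sets, all but Mmp3 and Mmp13. Mmp1a, an interstitial collagenase gene, read 4.31, 3.73 and 3.39 with Tsuru and 4.38, 4.58 and 4.69 in controls. The groups did not overlap and limma's adjusted p was 0.352, but both lay under the limit, so no fold is given. Mmp1b, a closely related copy beside it, read 3.59, 3.26 and 4.26 against 3.94, 3.76 and 4.30, which overlap, and how far probes of one copy take up transcripts of the other was not tested. Mmp12, the macrophage elastase gene, was highest on control replicate 1, at 5.66 against 4.51 to 4.98 on the other arrays. The mean of the macrophage marker list was also highest on that array, at 5.58. Of its genes, Lyz2, at 7.88, and Mrc1, at 6.7, were highest there. Ptprc, Cd68, Adgre1, Csf1r, Itgam and Cd14 were each highest on another array. The part of that list in the Mmp12 reading was not tested.

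Mmp25, which encodes a lipid-anchored membrane enzyme and was the other Mmp gene past the unadjusted threshold, read 4.03, 4.06 and 3.71 with Tsuru and 4.37, 4.23 and 4.43 in controls. All of these lay under the limit. Its call did not hold on leaving out replicate 1 or 3 of either group. Mmp15, a further membrane-type gene, lay under the limit as well. The 28 members that are not named by the rule for named genes had differences between -0.41 and 0.34, with adjusted p from 0.495 upwards, and 22 of them lay under the negative control sets.

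Among the 31 members above the limit, 17 had a wider range over the controls than over the Tsuru arrays, and the median range was 0.55 and 0.43. Of these 31, 21 had their lowest control value on control replicate 1, or 67.7%, against 47.6% of all genes above the limit, and 20 had their highest on control replicate 3, or 64.5%, against 43.3%. Their median deviation from the gene mean was -0.31 on control replicate 1, -0.08 on control replicate 2 and 0.17 on control replicate 3; for Tsuru it was 0.04, -0.01 and 0.19. Over all genes above the limit it was -0.14, -0.02 and 0.00, and 0.05, 0.04 and 0.06. The 2 Adamtsl genes above the limit had medians of 0.24, 0.02 and 0.22 for the controls and 0.02, -0.46 and -0.03 for Tsuru. On control replicate 1 Adamtsl4 was at 0.56 and Adamtsl5 at -0.08. The Plod genes were low on all 3 controls, with medians of -0.26, -0.20 and -0.37 for the controls and 0.43, 0.31 and 0.09 for Tsuru. A control range wider than 1 log2 unit was found for 5 members, Timp3, Mmp11, Adamts9, Mmp9 and Timp1, and a Tsuru range that wide for 2, Mmp11 and Mmp13. The count of members with a higher mean past the threshold was 4 without control replicate 1, 9 without control replicate 3 and 2 without Tsuru replicate 1. The count with a lower mean was 3, 2 and 2 in the same fits. In either direction 12.3%, 19.3% and 7.02% of the members passed, where 8.96%, 16.3% and 7.47% of all clusters did, so without Tsuru replicate 1 the members' share lay below that of all clusters.

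**Figure D3:**
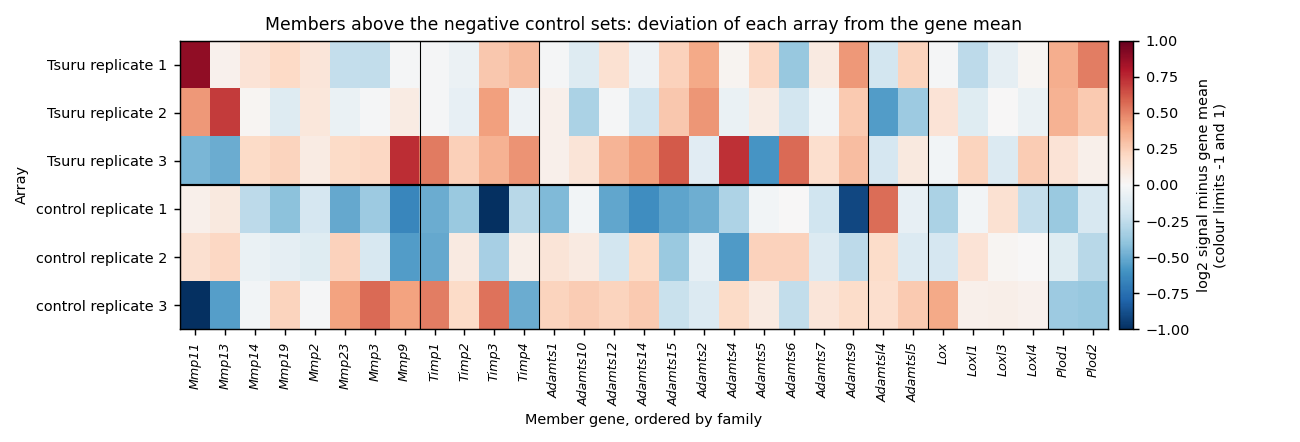
Log2 signal of each array minus the gene's mean over 6 arrays, for the 31 members above the negative control sets, grouped by family; red is above and blue below the mean. Control replicate 1 is blue for most members and control replicate 3 mostly red, while Plod1 and Plod2 are red on the Tsuru arrays and blue on the controls.

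The authors' deposited table, whose group averages differ from the means of the deposited arrays, had the same sign as the values above for 44 of 57 members. By the authors' deposited table, 6 members passed the methods' threshold with a higher mean and 3 with a lower one, and 5 and 3 of these also passed here. Its fold changes were 1.68 for Adamts15, 1.63 for Plod1, 1.61 for Plod2 and 1.59 for Adamts2 in the authors' deposited table, and -1.45 for Adamtsl4, where a minus sign marks a lower Tsuru value. Timp4 and Mmp25 did not pass in the authors' deposited table, with unadjusted p-values of 0.0561 and 0.1099, while Mmp28 did, at a fold of 1.35. Mmp28, or epilysin, read 5.85, 5.84 and 5.90 with Tsuru and 5.77, 5.50 and 5.32 without. Its mean over the 6 arrays was 5.7, under the limit of 5.87. The lowest false discovery rate of a member in the authors' deposited table was 0.3136.

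Genes that work with the members were described by 8 lists with 95 measured genes. Of these, 9 passed the unadjusted threshold with a higher mean, or 9.47%, where 5.75% of all genes did, and 0 with a lower one. Of the 95 genes, 63 lay above the limit. Among all genes above it, 9.85% passed with a higher mean and 2.92% with a lower one. The median difference over the 95 genes was 0.09, beside 0.10 over all genes above the limit. Among 17 genes of collagen modification and folding, which act beside the Plod enzymes, 0 passed, although 14 differences were positive and the median was 0.17. Positive differences made up 51.1% of all genes and 64.8% of those above the limit. Among 7 fibrillar collagen and fibronectin genes 2 passed, Col5a1 at 0.43 ± 0.19 (SE) and Col5a3, whose control mean of 5.78 lay under the limit and whose Tsuru mean was 6.43.

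Elastic fibre and microfibril genes gave 3 of 15 past the threshold, or 20%, all with a higher mean. Over all genes 5.75% did so, and 9.85% of those above the limit. Ltbp3, which encodes a protein that binds latent TGF-beta, differed by 0.62 ± 0.17 (SE; limma adjusted p = 0.352). Fbln2, the fibulin 2 gene, differed by 0.57 ± 0.24 (SE; limma adjusted p = 0.42). Fbn1, the fibrillin 1 gene, differed by 0.50 ± 0.22 (SE; limma adjusted p = 0.443). The Fbn1 groups overlapped, at 12.71 on Tsuru replicate 3 and 12.73 on control replicate 2. Among 10 proteoglycan substrate genes 1 passed, or 10%, the perlecan gene Hspg2 at 0.48 ± 0.21 (SE).

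Of 16 other metalloproteinase and sheddase genes, 9 of them above the limit, 2 passed with a higher mean, or 12.5%. Over all genes 5.75% did, and 9.85% of those above the limit. The 2 were Ece1, the endothelin-converting enzyme gene, at 0.92 ± 0.20 (SE; limma adjusted p = 0.336), and Adam15, which lay under the limit in both groups. Ece1 read 9.30, 9.20 and 9.72 with Tsuru and 8.31, 8.73 and 8.43 in controls, with no overlap. In the plasminogen system, which activates several MMPs, 6 of the 8 differences were negative, as were those of 10345 of all 21154 genes. The median of the plasminogen list was -0.14. Of 12 other inhibitors and activators 0 passed, with a median of 0.01, and of 10 cathepsins and matrix-cutting serine proteases 0 passed, with a median of 0.06. The count of 9 was 5 without control replicate 1, 3 without Tsuru replicate 1 and 4 without Tsuru replicate 2.

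**Figure D4:**
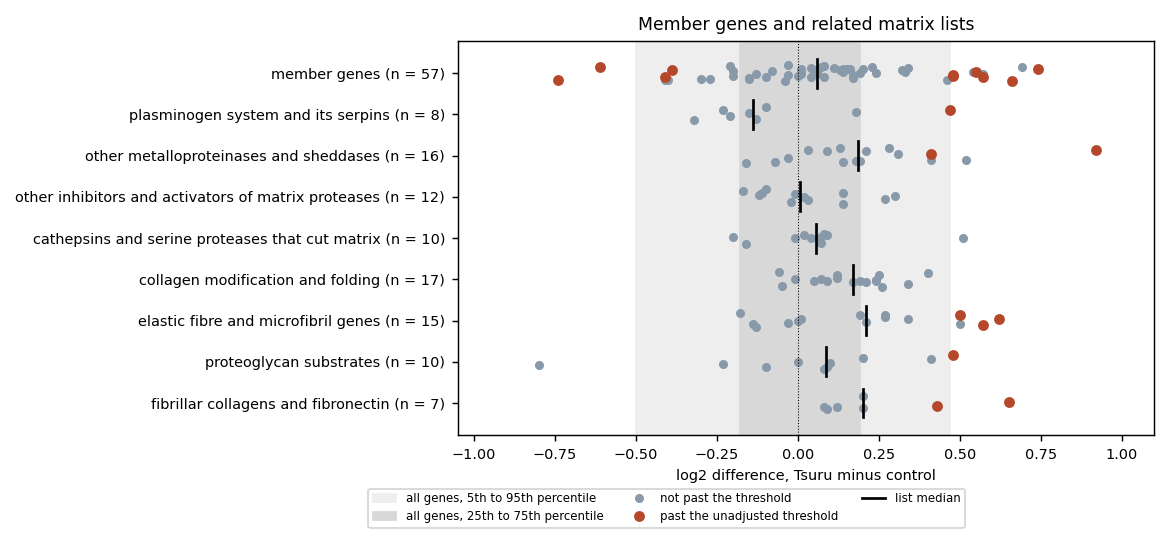
Log2 differences, Tsuru minus control, of the 57 members and of 8 lists of related matrix genes; each point is a gene, red points passed the unadjusted threshold, black bars are list medians and the grey bands span the 25th to 75th (dark) and 5th to 95th (light) percentiles of all 21154 genes. List medians run from -0.14 for the plasminogen system to 0.21 for elastic fibre genes.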

How the data were processed

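RNA of 6 samples was measured on Clariom S mouse arrays. The deposited value table holds log2 signals of 28846 probe sets, made by the authors with SST-RMA in Transcriptome Analysis Console 4.0.2, per the series design text; RMA and version 4 of that software stand in the submitters' processing notes. The genome build of the clusters was not used here. Groups and replicate numbers came from the sample titles. The 6640 control sets were left out, and the remaining 22206 clusters entered a linear model for Tsuru minus control (lmFit, then eBayes, from limma 3.58.1 under R 4.3.3, no dim filter), with Benjamini-Hochberg adjustment over all clusters. The median standard error was 0.195, and 3 arrays a group limit the precision.

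A second deposited table holds the authors' comparison, a signed linear fold with p-values by one-way ANOVA and empirical Bayes, as the series design text states. Its averages lay within 0.01 of the array means for only 5.26% (Tsuru) and 4.83% (control) of clusters, for a reason that was not tested. At most 10 values were identical between any pair of arrays, and each array counts as 1 sample.

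Genes were represented by their brightest single-symbol cluster. The rule for named genes takes members past the methods' threshold, the 2 brightest of each family and a list of well-known members, and members of related lists past the threshold; of 141 list entries 138 were matched. A gene of the related lists is not reported here. Members, lists and tests were chosen with earlier results of these data known. A mean under that of the 5222 negative control sets was taken as no measurable signal, since detection calls per array were not used here. The fit was tested on simulated data with planted differences larger than that of any member and with noise independent between arrays. That test does not show how often differences of the size described here would be called. Alternatives were quantile normalization, median subtraction, a dim filter, a variance trend, array weights, a replicate block, the mean over a gene's clusters and leaving out each array. Sequences came from RefSeq tables of GRCm38.p6.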

Additional observations from a re-analysis of the deposited data

How the results depend on the processing

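Of 29 named genes, 8 kept their direction and their side of the unadjusted threshold under every alternative that held them. Of the 10 called members these were Adamts15, Adamtsl4 and Plod1, under 13 alternatives, and Mmp1a, under 12, while their adjusted p ran from 0.112 to 0.66. The others were Mmp2, Mmp14, Loxl3 and Loxl4, which passed the threshold in none. Of 373 values of named genes under an alternative, 315 kept both. Clusters at an adjusted p under 0.05 numbered 0 to 25 with an array left out, the 25 without control replicate 3, where no member was among them (lowest member adjusted p 0.109). Clusters past the methods' threshold numbered 1659 to 3616 with an array left out, and 1338 with dim clusters left out, where 10196 were tested. The members' median was 0.16 with dim clusters left out. Members with a higher mean past the threshold numbered 2 to 9 with an array left out. Those with a lower mean numbered 2 after quantile normalization and 2 after median subtraction (the cause was not tested), 1 with dim clusters left out, which removes 3 of the 4, and 2 to 5 with an array left out. The alternatives for the related lists were chosen after seeing the data: their higher count was 5 after quantile normalization and 3 to 12 with an array left out, and their lower count was 1 with the replicate block and 0 to 2 with an array left out. Small differences changed sign. Adamts1 was at 0.00 after quantile normalization, Adamtsl5 at 0.05 after median subtraction and 0.01 with array weights, and Mmp3 at 0.05 after median subtraction. With an array left out Adamts1 ran from -0.14 to 0.19, Adamts5 from -0.35 to 0.05, Adamtsl5 from -0.14 to 0.15, Lox from -0.07 to 0.28, Loxl1 from -0.24 to 0.00, Mmp13 from -0.15 to 0.45, Mmp15 from -0.15 to 0.27, Mmp3 from -0.22 to 0.25 and Timp2 from -0.11 to 0.17. The labels do not tell whether arrays of the same replicate number form pairs. Deviations of such arrays correlated at 0.00, 0.01 and 0.19. Tsuru replicates 1 and 2 correlated best with another number, and Tsuru replicate 3 with its own. With the replicate block 9 members were higher and 3 lower past the threshold, among them Adamts4, Mmp9, Mmp11 and Timp3 in place of Timp4 and Mmp25, and 0 clusters reached an adjusted p under 0.05.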
